A study of Mus musculus with 10 samples.

Results

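Chemokines are small secreted proteins that guide migrating cells, and their levels were examined together with those of their receptors in hearts of *Rit1* M90I/+ mice. Members were the rows of the deposited table that are annotated as protein coding and named as a Ccl, Cxcl, *Cx3cl1* or *Xcl1* ligand, a Ccr, Cxcr, *Cx3cr1* or *Xcr1* receptor, or an Ackr atypical receptor, which gave 66 of 54532 rows. They comprised 44 ligand rows and 22 receptors, 4 of them atypical, and carried 60 distinct symbols because some *Ccl19*, Ccl21 and Ccl27 genes are listed more than once. Poly(A)-selected RNA from heart tissue was sequenced for 5 mice of the vehicle control group and 5 mice of the MEKi group. MEKi-treated mice received trametinib, an allosteric inhibitor of the kinases MEK1 and MEK2, once daily at a dose of 1 mg/kg. Dosing began when the mice were 4 weeks old and lasted 20 weeks, and hearts were collected 2 hours after the last dose. Vehicle mice received the carrier alone on the same schedule. Every heart of both groups carried the *Rit1* M90I/+ genotype, in which 1 copy of the RAS-related GTPase RIT1 has the Noonan syndrome variant. The allele was made active by crossing conditional mutant males to cytomegalovirus-Cre deleter females, so that it is present in all tissues and not only in the heart. Wild-type hearts were not analysed here, and the comparison is therefore between the treatment groups within the mutant genotype. Sex-linked transcripts separated the same groups, as given below, so treatment and sex cannot be told apart in it.

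Most chemokines signal through G protein-coupled receptors on leukocytes, where they direct chemotaxis and activate integrins. Atypical receptors bind chemokines without classical G protein signaling and clear or redistribute them. In the heart, resident macrophages, fibroblasts and endothelial cells are known sources of chemokines, and circulating monocytes and neutrophils carry many of the receptors.

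The members with the clearest differences were ligands, and each of them was lower with MEKi. *Ccl11*, which encodes eotaxin, was at 4.55 ± 1.15 FPKM (fragments scaled by transcript length and library size) in the vehicle group and at 1.34 ± 0.639 FPKM in the MEKi group (SD, n = 5 each). *Cxcl14*, a chemokine of epithelial and stromal cells, was at 28.2 ± 4.38 and 14.5 ± 4.57 FPKM. *Ccl6*, a CC chemokine of rodent myeloid cells, was at 31.0 ± 14.9 and 16.4 ± 2.57 FPKM. In these 3 genes every vehicle heart was above every MEKi-treated heart. None of them passed the threshold after adjustment over all genes tested.

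For the comparison, log2(FPKM + 0.1) was fitted with limma for 12602 genes, those averaging 0.5 FPKM or more across all 10 hearts, and p-values were adjusted by Benjamini-Hochberg at a threshold of 0.05. On this scale a change in a weakly expressed gene comes out smaller than it is. Of the 66 members, 27 passed the filter on low values, 18 of them ligands and 9 receptors. No member had an adjusted p under 0.05, whereas 10 genes in the whole table did, or 0.0794% of those tested. Those 10 included the Y-linked *Ddx3y*, *Eif2s3y* and *Uty*, lower with MEKi, and the X-linked *Xist*, higher with MEKi. A fit that omitted the sex chromosomes and the mitochondrial genes called 0 genes at this threshold. At an unadjusted p under 0.05, 7 of the 27 members were lower and 0 were higher with MEKi (25.9% of them). Among all genes tested, 7.62% reached that level, 3.94% lower and 3.67% higher. A voom fit to the recovered fragments also called 0 members, with 7 at an unadjusted p under 0.05. Groups did not overlap for 3 of the 27 members, or 11.1%, all of them lower, against 1.64% of all genes tested (0.849% lower and 0.794% higher). By the sign of the fitted value alone, 21 of the 27 were lower and 6 higher, so that 77.8% were lower against 47.9% of all genes tested. The median log2 fold change of the 27 was −0.21, and that of all genes was 0.01. It was −0.32 without vehicle heart 4 and −0.14 without MEKi heart 4. With each heart rescaled to a constant sum (TPM), 17 members were lower and 10 higher, and the median of all genes moved to 0.09. Leaving out vehicle heart 5 gave the same split, 17 lower and 10 higher.

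**Figure D1:**
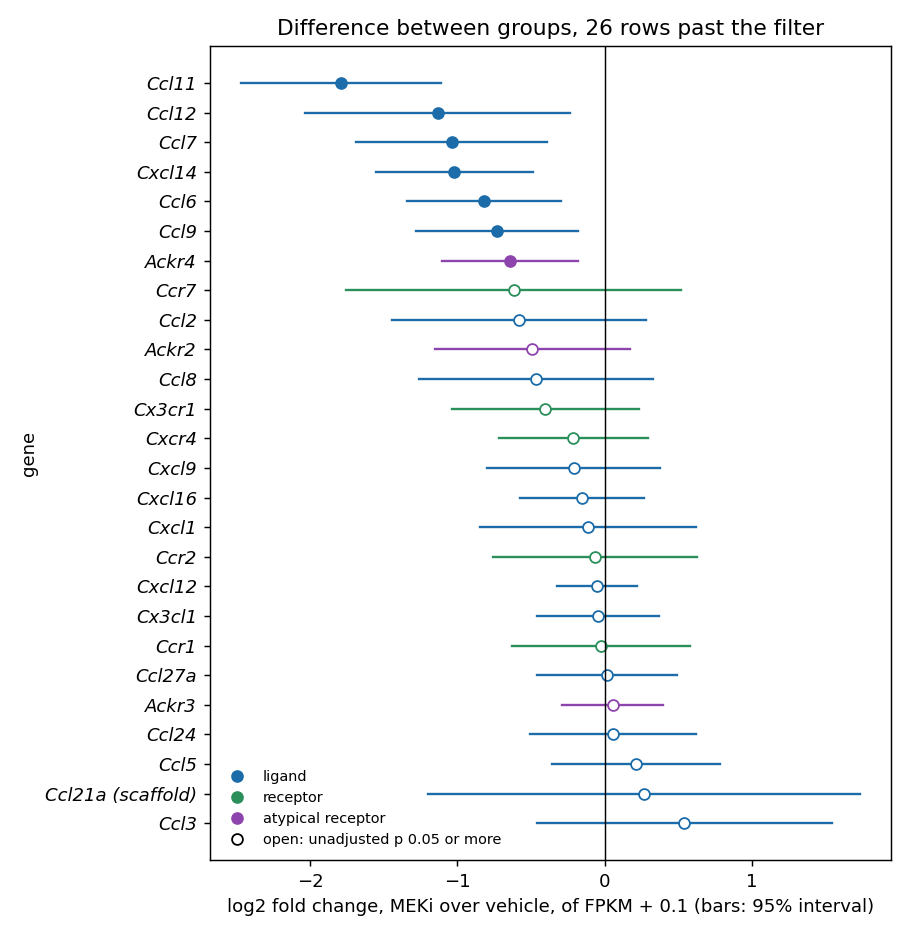
Log2 fold change of FPKM + 0.1 (MEKi over vehicle, horizontal axis) with its 95% interval for 26 members past the filter, ordered by size and coloured by role, with filled points for an unadjusted p under 0.05. The 7 filled points all lie below 0, from −1.79 for *Ccl11* to −0.64 for *Ackr4*, and the highest value is 0.54 for *Ccl3*.

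Several measures of the whole libraries bear on these values. Fragments assigned to genes numbered from 13647167 to 16659254 per vehicle heart and from 14868373 to 18474002 per MEKi-treated heart. *Xist*, the RNA that coats the inactive X chromosome, was at 5.86 ± 0.671 FPKM in the MEKi group and at 0.00132 ± 0.00296 FPKM in the vehicle group (SD, n = 5 each). The Y-linked *Ddx3y* and *Eif2s3y* were at 11.2 ± 0.714 and 9.74 ± 1.01 FPKM in vehicle hearts and had no fragment in any MEKi-treated heart. The methods state that littermates of both sexes entered the trial, and the sex of each heart is not given in the labels. Sex-linked transcripts followed the treatment groups without exception, so the contributions of sex and of treatment to any member cannot be told apart. Cardiomyocyte markers were high in every heart, with a summed level between 14342 and 20089 FPKM. The summed atrial marker level ran from 125.4 to 2136 FPKM, highest in vehicle heart 4, MEKi heart 2 and vehicle heart 5. Vehicle hearts 4 and 5 also stood apart in red cell and platelet markers, at 23489 and 25720 FPKM against 2887 to 7360 FPKM in the other hearts.

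The plot of levels by heart shows how far the members differed in abundance. Averaged over the 10 hearts, the 6 highest ligand rows were *Ccl21a*, *Ccl6*, *Cxcl14*, *Cxcl12*, *Ccl9* and *Cxcl16*, and the 6 highest receptors were *Ackr3*, *Cxcr4*, *Ccr1*, *Cx3cr1*, *Ackr4* and *Ackr2*. FPKM are scaled by the annotated gene length, so the order between genes is approximate. The *Ccl21a* row has a length of 402 bases, against 870 for the row of that name on chromosome 4. Overlapping genes and near-identical copies, given below, limit the order further. Among the receptors *Ackr3* stood apart, since its lowest heart (17.3 FPKM) was above the highest heart of *Cxcr4* (5.81 FPKM). From *Cxcr4* down, neighbors in this order overlapped.

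**Figure D2:**
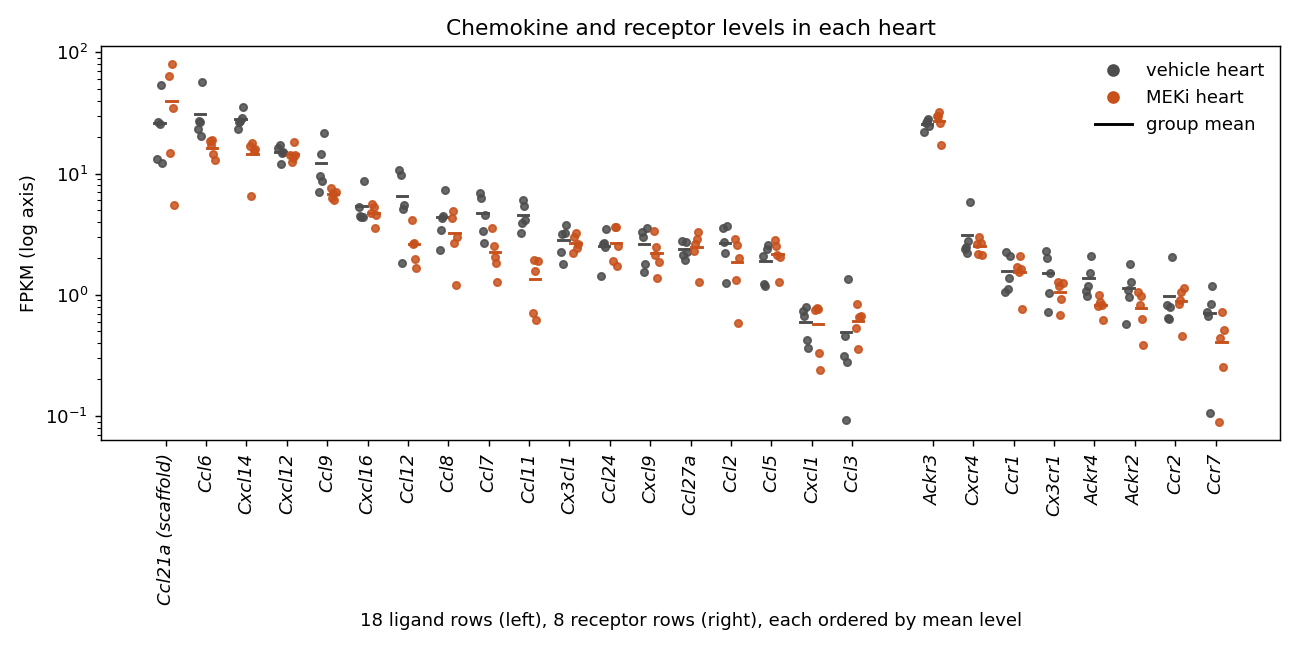
FPKM (log axis) of 26 members past the filter in each of the 10 hearts, with 18 ligand rows on the left and 8 receptors on the right, each ordered by mean level. Gray points are vehicle hearts, orange points MEKi-treated hearts and short lines group means. *Ccl11*, *Cxcl14* and *Ccl6* are the 3 genes whose gray and orange points do not overlap.

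The *Ccr3* ligands did not move as one. *Ccl11* (chromosome 11, 82057823 to 82062955, plus strand) encodes eotaxin, which attracts eosinophils through *Ccr3*. Its levels in vehicle hearts 1 to 5 were 3.24, 3.91, 6.05, 5.44 and 4.13 FPKM, and in MEKi-treated hearts 1 to 5 they were 0.701, 1.94, 1.57, 0.620 and 1.88 FPKM. The lowest vehicle heart was thus well above the highest MEKi-treated heart, and the vehicle mean was 3.39 times the MEKi mean. The log2 fold change was −1.79 (SE 0.31, 95% interval −2.47 to −1.11, limma adjusted p = 0.0865), which ranked *Ccl11* 15 of 12602 by p. Under the alternatives its adjusted p ran from 0.0446, with a pseudocount of 1, to 0.553, with the 3 hearts of highest atrial marker level left out. Between 12 and 93 fragments per heart lay behind these values. *Ccl24*, which encodes the related eotaxin-2, averaged 2.54 ± 0.741 FPKM for vehicle and 2.67 ± 0.909 FPKM for MEKi (SD, n = 5 each), with a log2 fold change of 0.06 (95% interval −0.51 to 0.62). Their receptor *Ccr3* had 5 fragments in all, in 2 of the 10 hearts.

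*Cxcl14* (chromosome 13, 56288643 to 56296551, minus strand) has no settled receptor and was one of the most abundant chemokines of these hearts. Vehicle hearts 1 to 5 had 23.2, 26.7, 27.4, 28.5 and 35.2 FPKM, and MEKi-treated hearts 1 to 5 had 16.8, 6.51, 17.9, 15.4 and 16.1 FPKM. All vehicle hearts were higher, and MEKi heart 2 was far below the other MEKi-treated hearts. Its log2 fold change was −1.02 (SE 0.24, limma adjusted p = 0.314), and it was −0.75 without MEKi heart 2.

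*Ccl6* and *Ccl9* lie next to each other on chromosome 11 and encode CC chemokines that act on myeloid cells through *Ccr1*. *Ccl6* (83587882 to 83593087, minus strand) was at 23.3, 27.3, 26.7, 20.3 and 57.2 FPKM in vehicle hearts 1 to 5 and at 18.5, 17.3, 18.9, 14.5 and 12.9 FPKM in MEKi-treated hearts 1 to 5. Vehicle heart 5 had more than any other heart, and the other vehicle hearts were still above all MEKi-treated hearts. Its log2 fold change was −0.82 (SE 0.24, limma adjusted p = 0.436), and −0.57 (limma adjusted p = 0.371) without vehicle heart 5. *Ccl9* (83572919 to 83578636, minus strand) was at 7.05, 9.54, 14.6, 8.63 and 21.5 FPKM in vehicle hearts 1 to 5 and at 7.66, 6.24, 6.86, 6.10 and 7.02 FPKM in MEKi-treated hearts 1 to 5. Vehicle heart 1 lay among the MEKi-treated hearts, whose spread was narrow (SD 0.634 against 5.90 FPKM in the vehicle group). The log2 fold change of *Ccl9* was −0.73 (SE 0.25, limma adjusted p = 0.517).

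The monocyte chemoattractant ligands of *Ccr2* were lower in the MEKi means, with wide spread among vehicle hearts. *Ccl12* (chromosome 11, 82101845 to 82103400, plus strand), a mouse monocyte chemoattractant, was at 10.6, 9.69, 1.83, 5.08 and 5.50 FPKM in vehicle hearts 1 to 5 and at 4.13, 2.60, 2.66, 1.98 and 1.66 FPKM in MEKi-treated hearts 1 to 5. Vehicle heart 3 fell within the MEKi range, and the other vehicle hearts were above it. Its log2 fold change was −1.13 (SE 0.41, limma adjusted p = 0.554), and the unadjusted p was over 0.05 without vehicle heart 2. *Ccl7* (chromosome 11, 82045712 to 82047525, plus strand), which encodes monocyte chemotactic protein 3, was at 6.97, 6.24, 3.34, 2.69 and 4.55 FPKM in vehicle hearts 1 to 5 and at 3.57, 2.55, 2.04, 1.81 and 1.27 FPKM in MEKi-treated hearts 1 to 5. Vehicle hearts 3 and 4 overlapped MEKi heart 1. The log2 fold change of *Ccl7* was −1.04 (SE 0.30, limma adjusted p = 0.413). *Ccl2*, the best known ligand of *Ccr2*, was at 2.69 ± 0.998 and 1.88 ± 0.928 FPKM (log2 fold change −0.58, 95% interval −1.45 to 0.28), and *Ccl8* was at 4.35 ± 1.84 and 3.22 ± 1.46 FPKM (−0.47, −1.26 to 0.33; SD, n = 5 each). Without MEKi heart 4 the log2 fold changes were −0.25 for *Ccl2* and −0.17 for *Ccl8*. The receptor itself, *Ccr2*, differed less than its spread, with 0.985 ± 0.592 FPKM for vehicle and 0.881 ± 0.265 FPKM for MEKi (log2 fold change −0.07, 95% interval −0.76 to 0.62). Its highest value, 2.03 FPKM, was again in vehicle heart 5.

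**Figure D3:**
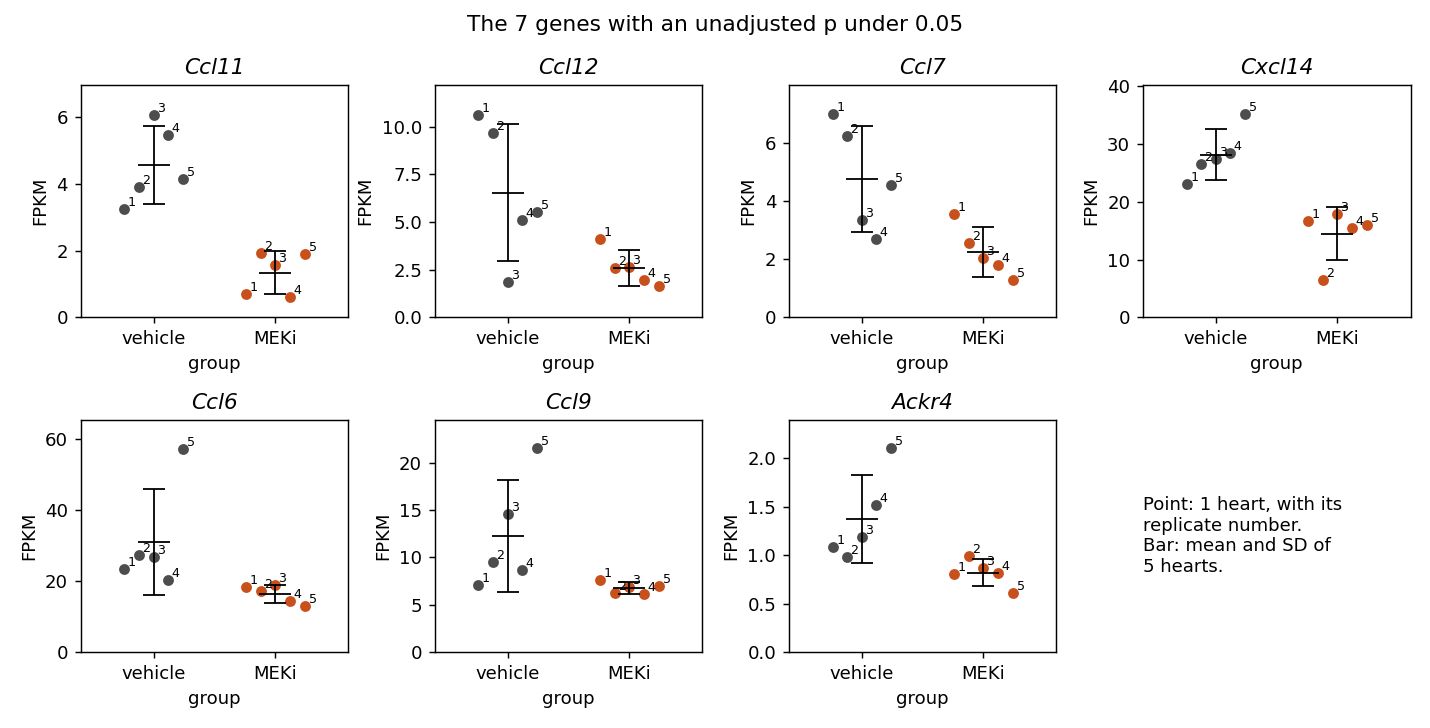
FPKM in each heart (points, with the replicate number) of the 7 members with an unadjusted p under 0.05, by group, with the mean and SD of 5 hearts. Vehicle hearts lie above all MEKi-treated hearts for *Ccl11*, *Cxcl14* and *Ccl6*, and 1 or more vehicle hearts overlap the MEKi range for *Ccl12*, *Ccl7*, *Ccl9* and *Ackr4*.

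Of the 7 lower genes, 5 lie on chromosome 11, where mouse CC chemokine genes form a pair of clusters. All 5 are CC ligands, and CC ligands on chromosome 11 made up 9 of the 27 members past the filter. Whether the lower genes were concentrated there beyond this share was not tested. The 6 members from *Ccl2* to *Ccl1* span 82035571 to 82305690, and of the 5 that passed the filter all had a negative log2 fold change (median −1.04), 3 with an unadjusted p under 0.05. In the cluster from *Ccl5* to *Ccl4* (83525778 to 83664683), 4 of 5 members passed the filter, of which 2 were lower and 2 higher. The lower genes there were *Ccl6* and *Ccl9*. *Ccl5*, a ligand of *Ccr1* made by lymphocytes, was at 1.90 ± 0.657 and 2.17 ± 0.596 FPKM (log2 fold change 0.21), and *Ccl3* was at 0.496 ± 0.492 and 0.609 ± 0.178 FPKM (0.54, from 1 to 15 fragments per heart; SD, n = 5 each). Without vehicle heart 5 the log2 fold change of *Ccl3* was 0.94, with an unadjusted p of 0.0206 and an adjusted p of 0.634 (limma). The sequences just upstream of these genes are printed because the genes are close to each other and had lower means with MEKi. The 250 bases before the annotated start are shown 5′ to 3′ on the strand of the gene, from RefSeq on GRCm38.p6, for *Ccl12* (chr11:82101595-82101844, plus), *Ccl9* (chr11:83578637-83578886, minus), *Ccl6* (chr11:83593088-83593337, minus) and, as the lower gene on another chromosome, *Cxcl14* (chr13:56296552-56296801, minus). Capitals mark matches to TATAAA, to the AP-1 motif TGANTCA, to the GAS motif TTCNNNGAA or to the NF-kB motif, each searched on both strands.
Ccl12: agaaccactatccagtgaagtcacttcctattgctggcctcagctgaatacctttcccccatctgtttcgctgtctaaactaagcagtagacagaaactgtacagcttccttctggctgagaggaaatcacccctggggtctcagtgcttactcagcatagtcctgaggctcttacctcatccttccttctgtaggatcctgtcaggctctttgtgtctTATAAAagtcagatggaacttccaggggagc
Ccl9: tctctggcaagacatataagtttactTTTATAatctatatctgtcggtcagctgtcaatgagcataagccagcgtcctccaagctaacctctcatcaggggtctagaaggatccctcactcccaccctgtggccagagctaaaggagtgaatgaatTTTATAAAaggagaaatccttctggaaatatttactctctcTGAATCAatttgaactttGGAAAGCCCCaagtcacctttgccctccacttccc
Ccl6: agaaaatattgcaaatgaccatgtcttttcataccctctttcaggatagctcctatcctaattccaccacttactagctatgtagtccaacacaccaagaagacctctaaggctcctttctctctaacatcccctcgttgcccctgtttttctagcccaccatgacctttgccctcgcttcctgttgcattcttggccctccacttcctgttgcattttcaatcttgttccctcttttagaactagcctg
Cxcl14: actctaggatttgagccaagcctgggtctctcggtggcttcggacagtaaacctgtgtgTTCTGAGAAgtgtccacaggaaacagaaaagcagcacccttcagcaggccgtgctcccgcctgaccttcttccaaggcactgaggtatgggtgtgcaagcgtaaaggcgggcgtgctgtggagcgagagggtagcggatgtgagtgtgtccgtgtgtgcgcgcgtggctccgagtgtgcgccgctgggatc
In *Ccl12* the capitals mark TATAAA, starting 31 bases before the annotated start. *Ccl9* has 3 matches to TATAAA, at 224, 94 and 92 bases, of which the last 2 overlap, followed by a match to AP-1 at 53 bases and one to NF-kB at 35 bases. *Cxcl14* has a GAS match 191 bases before the start, and *Ccl6* has no match to these motifs in this window. Among 32851 windows of this length in the same table, 12.4% hold TATAAA, 6.75% AP-1, 7.02% GAS and 7.25% NF-kB. Of the 18 members past the filter that matched a window, 8 hold TATAAA, 2 AP-1, 1 GAS and 4 NF-kB. *Ackr4*, the fifth of the lower genes with an entry, holds TATAAA 185 bases before its start. These matches describe letters only. *Ccl11* and *Ccl7* were not matched.

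Ligands of the homeostatic receptors did not differ beyond their spread. *Cxcl12* (chromosome 6, 117168535 to 117181367, plus strand), the stromal ligand that retains leukocytes and progenitors in tissue, was at 16.3, 17.2, 12.1, 14.8 and 15.1 FPKM in vehicle hearts 1 to 5 and at 14.3, 12.4, 13.5, 18.3 and 14.3 FPKM in MEKi-treated hearts 1 to 5. The groups overlapped throughout, with a log2 fold change of −0.05 and a 95% interval of −0.32 to 0.22, so a change of 2-fold in either direction lies outside it. Its signaling receptor *Cxcr4* (chromosome 1, 128588199 to 128592293, minus strand) was at 2.37, 2.49, 2.22, 2.78 and 5.81 FPKM in vehicle hearts 1 to 5 and at 2.65, 2.16, 3.01, 2.69 and 2.15 FPKM in MEKi-treated hearts 1 to 5. Only vehicle heart 5 departed from the rest, and the log2 fold change of −0.21 (95% interval −0.72 to 0.30) became 0.03 without it. *Ackr3* (chromosome 1, 90203980 to 90216751, plus strand), the atypical receptor that removes *Cxcl12*, was at 21.96, 26.4, 27.04, 28.0 and 24.6 FPKM in vehicle hearts 1 to 5 and at 30.1, 29.9, 32.1, 26.0 and 17.3 FPKM in MEKi-treated hearts 1 to 5. MEKi-treated hearts held both its highest and its lowest value. The log2 fold change was 0.05 (95% interval −0.29 to 0.39).

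*Ccl21a*, a ligand of *Ccr7* made by lymphatic endothelium and lymphoid stroma, was the ligand row with the highest mean, and it varied widely in both groups (SD 63.6% of the mean for vehicle and 79.8% for MEKi). The reads were assigned to a copy on the unplaced scaffold JH584294.1 (121048 to 121713, minus strand). Vehicle hearts 1 to 5 had 13.2, 26.7, 25.9, 53.6 and 12.1 FPKM, and MEKi-treated hearts 1 to 5 had 64.0, 14.8, 80.4, 34.9 and 5.54 FPKM. The highest and the lowest heart were both in the MEKi group, and the log2 fold change of 0.26 (95% interval −1.20 to 1.73) turned negative without MEKi heart 1 or 3. The 6 rows with a Ccl21 symbol are near-identical copies, and 97.3% of their 2124 fragments were in this row. How reads that match several copies were counted is not given in the sources used here. Summed over the 6 rows, the groups did not differ by an exact two-sided permutation test (p = 0.762). The sum does not recover reads that were left uncounted. Markers of thymus and lymph node were at most 0.151 FPKM in sum, with *Rag2*, *Madcam1*, *Foxn1* and *Dntt* at 0 in every heart. Lymphatic endothelial markers summed to 17.6 to 41.3 FPKM in vehicle hearts and to 22.1 to 29.8 FPKM in MEKi-treated hearts. Of the 5 lymphatic endothelial genes past the filter, 2 were lower and 3 higher with MEKi. *Prox1* (log2 fold change 0.48) and *Mmrn1* (0.61) were higher at an unadjusted p under 0.05 (limma adjusted p = 0.413 and 0.626). *Lyve1*, the gene of highest level in this list, was lower (−0.26).

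*Ackr4* (chromosome 9, 104084157 to 104126933, minus strand), the atypical receptor that scavenges *Ccl19*, Ccl21 and *Ccl25*, was the only receptor past the filter with an unadjusted p under 0.05. It was at 1.083, 0.980, 1.19, 1.52 and 2.11 FPKM in vehicle hearts 1 to 5 and at 0.802, 0.997, 0.873, 0.821 and 0.615 FPKM in MEKi-treated hearts 1 to 5. Vehicle heart 2 was just below MEKi heart 2, and no other pair of hearts overlapped. Its log2 fold change was −0.64 (SE 0.21, limma adjusted p = 0.482). *Ackr4* overlaps *Acad11* on the opposite strand, which was at a mean of 9.95 FPKM, and the strand setting of the counting is not given in the sources used here, so reads of the pair could not be told apart. *Ccr7*, the signaling receptor for *Ccl19* and Ccl21, was at 0.702 ± 0.388 and 0.404 ± 0.244 FPKM (SD, n = 5 each). The 95% interval of its log2 fold change was wide, at −1.76 to 0.52.

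Groups overlapped for the receptors *Ccr1*, *Cx3cr1* and *Ackr2*. *Ccr1* (chromosome 9, 123962124 to 123968692, minus strand), which binds *Ccl3*, *Ccl5*, *Ccl6* and *Ccl9*, was at 1.05, 2.25, 1.12, 1.37 and 2.09 FPKM in vehicle hearts 1 to 5 and at 1.69, 1.54, 2.09, 1.64 and 0.764 FPKM in MEKi-treated hearts 1 to 5. Except for MEKi heart 5, the MEKi values lay inside the vehicle range, and the log2 fold change was −0.03 (95% interval −0.63 to 0.58). *Cx3cr1* (chromosome 9, 119901616 to 120069879, minus strand), the receptor of patrolling monocytes and many tissue macrophages, was at 2.30, 2.02, 0.718, 1.04 and 1.53 FPKM in vehicle hearts 1 to 5 and at 1.28, 1.18, 0.680, 0.918 and 1.24 FPKM in MEKi-treated hearts 1 to 5. Vehicle hearts 1 and 2 were highest, and the log2 fold change was −0.40 (95% interval −1.04 to 0.23). The annotated span of *Cx3cr1* covers other genes, among them *Xirp1* on the same strand at 21.9 FPKM, which limits its reading. Its ligand *Cx3cl1*, a membrane-tethered chemokine of endothelium, was at 2.85 ± 0.794 and 2.69 ± 0.407 FPKM (SD, n = 5 each; log2 fold change −0.05, 95% interval −0.46 to 0.37). *Ackr2* (chromosome 9, 121898355 to 121911074, plus strand), which scavenges inflammatory CC chemokines, was at 0.570, 1.09, 0.967, 1.79 and 1.27 FPKM in vehicle hearts 1 to 5 and at 1.04, 0.820, 0.980, 0.626 and 0.387 FPKM in MEKi-treated hearts 1 to 5. Groups overlapped, and the log2 fold change was −0.49 (95% interval −1.15 to 0.17). It was −0.69 without vehicle heart 1, with an unadjusted p of 0.0306 (limma adjusted p = 0.453), and −0.30 without MEKi heart 5.

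Of the remaining ligands past the filter, none reached an unadjusted p under 0.05. *Cxcl16* (chromosome 11, 70453983 to 70459984, minus strand), a transmembrane ligand of *Cxcr6*, was at 5.35, 4.500, 4.35, 4.35 and 8.67 FPKM in vehicle hearts 1 to 5 and at 4.77, 5.61, 5.27, 3.54 and 4.59 FPKM in MEKi-treated hearts 1 to 5. Vehicle heart 5 was again the highest, and the log2 fold change went from −0.15 to 0.02 without it. *Cxcl9*, an interferon-induced ligand of *Cxcr3*, was at 2.63 ± 0.906 and 2.23 ± 0.739 FPKM. *Ccl27a*, a ligand of *Ccr10* best known from skin, was at 2.37 ± 0.364 and 2.48 ± 0.756 FPKM, and it overlaps *Il11ra1* on the opposite strand, which was at 23.5 FPKM. *Cxcl1*, a neutrophil-attracting ligand of *Cxcr2*, was at 0.594 ± 0.189 and 0.570 ± 0.265 FPKM (SD, n = 5 each).

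**Figure D4:**
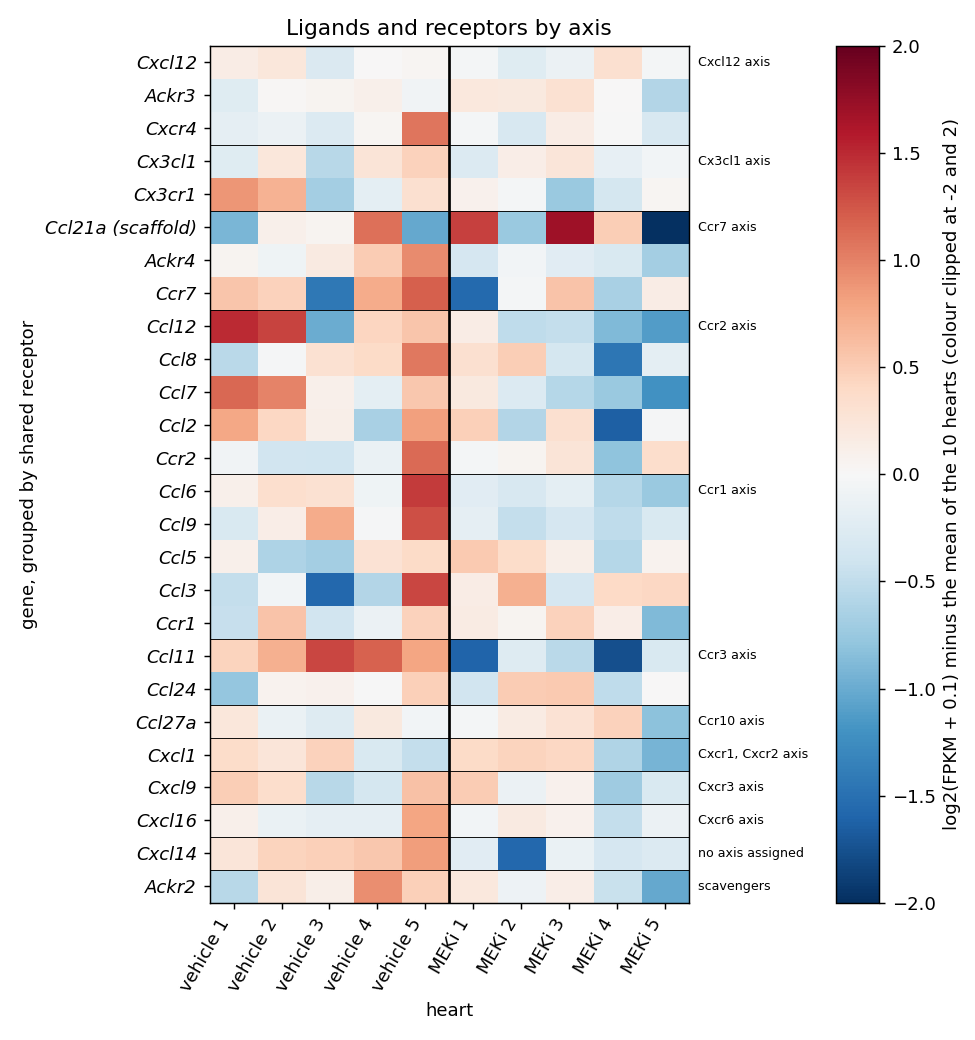
Deviation of log2(FPKM + 0.1) from the mean of the 10 hearts (color, clipped at −2 and 2) for 26 members past the filter, in rows grouped by shared receptor, with hearts in columns and vehicle hearts to the left of the line. *Ccl11* and *Cxcl14* are above their mean in every vehicle heart and below it in every MEKi-treated heart. For *Cxcl14* the blue is pale except in MEKi heart 2. *Cxcl12* is near white, as is *Ackr3* except in MEKi heart 5, and *Ccl21a* spreads widely within the MEKi group.

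The 39 members under the filter are given by counts. Of them, 7 rows had no fragment in any heart (*Cxcr1*, *Ccl20*, both *Ccl19* rows, *Ccl21b* on chromosome 4 and the 2 scaffold rows of *Ccl27a*), where a count of 0 allows up to 3 fragments per heart for counting error alone. The *Ccl19*, Ccl21 and *Ccl27a* rows are near-identical copies, and how reads that match several copies were counted is not given in the sources used here, so a 0 in them does not bound expression. Another 32 had at least 1 fragment. A pair of receptors in this set are described after their values were seen. *Cxcr2*, the receptor that draws neutrophils toward *Cxcl1* and related ligands, was at 0.0975, 0.364, 0.115, 0.0943 and 0.947 FPKM in vehicle hearts 1 to 5 and at 0, 0.0191, 0.0223, 0.0917 and 0.0835 FPKM in MEKi-treated hearts 1 to 5. The groups did not overlap, but the gap was narrow, with 83 fragments over all hearts and most of the vehicle mean from hearts 2 and 5. The exact two-sided permutation test gave p = 0.00794, which is the smallest p that 5 against 5 hearts can give, and limma on every gene above 0 gave an adjusted p of 0.768. *Xcr1*, the receptor of cross-presenting dendritic cells, was at 0.107, 0.187, 0.0316, 0.258 and 0.0772 FPKM in vehicle hearts 1 to 5 and at 0.341, 0.249, 0.398, 0.515 and 0.343 FPKM in MEKi-treated hearts 1 to 5. It was higher with MEKi in all but 1 pairing of hearts, vehicle heart 4 with MEKi heart 2 (exact two-sided permutation p = 0.0159, limma adjusted p = 0.587 over every gene above 0, 179 fragments in all). Its ligand *Xcl1* had 31 fragments in all.

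Most macrophage and neutrophil markers past the filter had lower means with MEKi. No macrophage, monocyte or neutrophil marker passed the adjusted threshold. For the counts that follow, 7.62% of all genes tested had an unadjusted p under 0.05 and 47.9% were lower by sign. Summed macrophage markers were between 219.2 and 394.5 FPKM with vehicle (median 274.1) and between 195.1 and 237.7 FPKM in MEKi-treated hearts (median 212.7), with 10 of 12 genes lower, 4 of them at an unadjusted p under 0.05. Monocyte marker sums did not overlap, at 236.0 to 402.3 FPKM in vehicle hearts and 174.4 to 229.0 FPKM in MEKi-treated hearts, but the sum rests on *Lyz2*, a lysozyme of myeloid cells (281.2 ± 67.0 and 198.8 ± 21.98 FPKM; SD, n = 5 each). Of the 3 monocyte genes past the filter 2 were lower and 1, *Plac8*, was higher (log2 fold change 0.38), and without *Lyz2* the sum overlapped between groups (1.48 to 3.79 and 1.68 to 2.68 FPKM, a sum taken after seeing the data). Neutrophil sums were 11.3 to 92.7 FPKM and 3.12 to 18.1 FPKM, highest in vehicle heart 5. All 4 neutrophil genes past the filter were lower, *S100a8* and *Csf3r* at an unadjusted p under 0.05. *Csf3r* averaged 1.36 FPKM with vehicle and 0.295 FPKM with MEKi, so it passed the filter through its vehicle hearts. Under the filter, *Mmp8* was lower with MEKi (0.154 and 0 FPKM) and *Camp* higher (0.0562 and 0.0948 FPKM), and *Ly6g* was at 0 in every heart. Fibroblast markers summed to 212.6 to 324.8 FPKM in vehicle hearts and 226.8 to 303.0 FPKM in MEKi-treated hearts, with 3 of the 7 genes lower and 4 higher. *Col1a1* was lower (log2 fold change −0.38) and *Lum* higher (0.40), each at an unadjusted p under 0.05. Epicardial and mesothelial markers summed to 8.36 to 23.5 FPKM in vehicle hearts and to 1.01 to 17.7 FPKM in MEKi-treated hearts, with 6 of 6 genes lower (median log2 fold change −1.32) and 0 at an unadjusted p under 0.05. The T cell, B cell, NK cell, dendritic cell and mast cell lists had 0 genes at that level, and their sums overlapped between groups. In bulk tissue, fewer cells of a type and less RNA per cell cannot be told apart. The part of these markers in the chemokine differences was not tested.

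**Figure D5:**
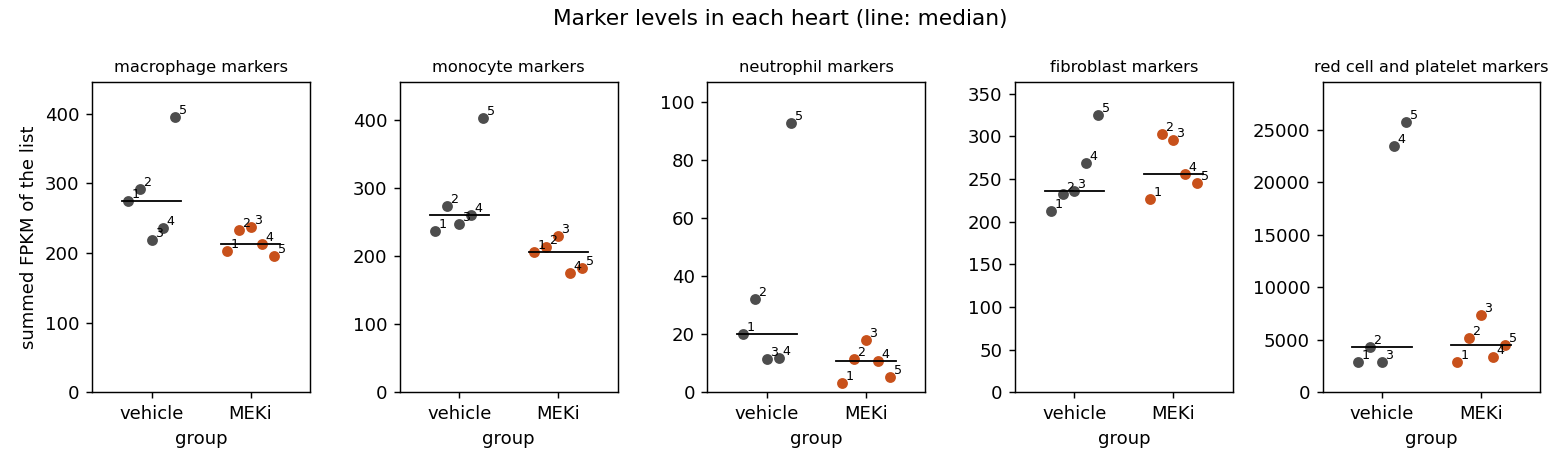
Summed FPKM of 5 marker lists in each heart (points, with the replicate number) by group, with a line at the median of 5 hearts and a separate linear axis for each list. The monocyte sums, which are nearly all *Lyz2*, do not overlap between groups, fibroblast sums overlap, and vehicle heart 5 is highest in all 5 lists.

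Each of the 7 lower genes was also divided by the marker sum of the same heart, a measure chosen after seeing the data. Relative to macrophage markers, *Ccl11* and *Cxcl14* still separated the groups, with vehicle means 2.79 and 1.499 times the MEKi means. Relative to fibroblast markers the groups were separate for *Ccl11* (3.64 times), *Cxcl14* (1.97 times) and *Ackr4* (1.71 times), whereas *Ackr4* overlapped relative to macrophage (1.296 times) and lymphatic endothelial markers (1.598 times). Relative to lymphatic endothelial markers *Ccl11*, *Cxcl14*, *Ccl6* and *Ccl9* were separate, and *Ccl7* and *Ccl12* overlapped. *Ccl6*, *Ccl9*, *Ccl7* and *Ccl12* overlapped between groups when divided by macrophage markers, with vehicle means from 1.37 times (*Ccl9*) to 1.91 times (*Ccl12*) the MEKi means. Against monocyte markers the ratios of all 7 overlapped, and the vehicle mean remained the higher one in each, by 1.18 times for *Ackr4* to 2.52 times for *Ccl11*. These ratios are descriptions and carry no test.

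Genes of the wider chemokine system were read from the same fit, and 0 of them passed the adjusted threshold. Among 30 signaling partners of chemokine receptors, 23 passed the filter, 19 lower and 4 higher (median log2 fold change −0.21). Of the 23, 5 had an unadjusted p under 0.05, each lower. Over all genes tested 7.62% had such a p, 3.94% lower and 3.67% higher, and 47.9% were lower by sign alone. *Grk6*, a kinase that desensitizes chemokine receptors, was at 5.56 ± 0.326 and 4.54 ± 0.274 FPKM without overlap (SD, n = 5 each; log2 fold change −0.28, limma adjusted p = 0.445). *Ncf1*, a subunit of the phagocyte oxidase, was at 2.75 ± 0.813 and 1.75 ± 0.309 FPKM, also without overlap (log2 fold change −0.60, limma adjusted p = 0.461). *Grk3* (−0.51) and *Pik3cd* (−0.46) followed, and the fifth was *Itgam* (−0.70), which is also a monocyte marker here. The unadjusted p of *Pik3cd* was over 0.05 without vehicle heart 5 or MEKi heart 4 or 5. That of *Itgam* was over 0.05 without vehicle heart 2 or 5 or MEKi heart 1 or 5. *Gnai2*, the G protein subunit through which most of these receptors signal, was at 66.7 ± 5.77 and 64.2 ± 3.13 FPKM (log2 fold change −0.05).

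Among 25 cytokines and regulators that induce or limit chemokine transcription, 21 passed the filter, 16 lower and 5 higher (median log2 fold change −0.13). *Il1b*, an inflammatory cytokine, was at 0.909 ± 0.453 and 0.327 ± 0.226 FPKM (log2 fold change −1.28, limma adjusted p = 0.548). *Myd88*, the adaptor of interleukin-1 and Toll-like receptors, was at 5.29 ± 1.01 and 3.87 ± 0.371 FPKM (−0.43, limma adjusted p = 0.461). *Nfkbiz*, a nuclear regulator of NF-kB targets, had separate groups at 0.774 ± 0.166 and 0.489 ± 0.0749 FPKM (−0.56), and *Zfp36*, which destabilizes cytokine and chemokine mRNAs, was at 5.84 ± 1.17 and 4.21 ± 1.00 FPKM (−0.47; SD, n = 5 each). These 4 of the 21 genes were the ones at an unadjusted p under 0.05 in that list, against 7.62% of all genes tested. *Zfp36* missed that level when vehicle heart 2, 3 or 5 or MEKi heart 3 or 5 was left out. *Il1b* and *Nfkbiz* averaged under 0.5 FPKM with MEKi and passed the filter through their vehicle hearts. Of 17 chemokine-like or chemokine-modifying genes outside the naming rule, 15 passed the filter, 11 lower and 4 higher (median −0.11). Of these 15, 1 had an unadjusted p under 0.05, a level that 7.62% of all genes tested reached. It was *Ppbp*, a platelet chemokine, at 9.28 ± 14.0 and 1.46 ± 0.970 FPKM (log2 fold change −1.95, limma adjusted p = 0.569). Vehicle heart 5, which stood apart in red cell and platelet markers, had 34.3 FPKM of *Ppbp* against a vehicle median of 2.498 FPKM, and the log2 fold change was −1.24 without it. The unadjusted p of *Ppbp* was over 0.05 without MEKi heart 1 or 5.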

How the data were processed

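Hearts of *Rit1* M90I/+ mice were grouped by their labels into vehicle control (n = 5) and MEKi (n = 5), labelled as biological replicates. The authors deposited 1 table of FPKM, which also lists gene lengths, positions and biotypes. The submitters' processing notes name fastp, STAR 2.5, HTSeq 0.6.1 and the mm10 build, and strand settings are not given in the sources used here. All 59 members with an identifier in the annotation used here had the same coordinates there. In every heart FPKM multiplied by gene length came out as whole multiples of 1 step (tolerance 0.001), which gave the fragments behind each value. The denominators of the FPKM equalled median-of-ratios size factors, so the hearts had been scaled to each other before deposit.

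The limma package (3.58.1, R 4.3.3) was applied to log2(FPKM + 0.1) for every gene averaging 0.5 FPKM or more, as a two-sided moderated fit with an intensity trend. Summaries were made in Python 3.11.15, numpy 2.4.6, pandas 2.3.3, scipy 1.17.1 and matplotlib 3.10.9. The fit was tested on simulated data with 199 changed genes per run. At the adjusted threshold it recovered 0.0% of 1.5-fold, 73.4% of 2-fold and 100% of 4-fold changes, with 0, 12 and 11 false calls. The simulated spread between hearts was 1 fixed setting for all genes and was not taken from these hearts. Single values under the filter were compared by exact permutation over all assignments of 5 against 5 hearts. Values in every heart are given for the 6 ligands and 6 receptors of highest mean and for members with an unadjusted p under 0.05 or groups that do not overlap. From the related lists, up to 4 genes with an unadjusted p under 0.05 were named with values, and *Itgam* and *Gnai2* were added after their values were seen. Of the 27 members past the filter, 1 enters the counts but is not reported here by its values. The members, the gene lists and the tests were chosen with earlier results of these data known. Alternatives comprised pseudocounts of 1 and 0.01, no filter, a mean of at least 2 FPKM, TPM, quantile normalization, voom, eBayes without trend, array weights, protein-coding genes only, omission of X, Y and mitochondrial genes, the replicate number as a block, and leaving out each heart or the 3 hearts with the highest atrial marker level. Intervals and the limit for a count of 0 cover counting error or the spread between these hearts only.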

Additional observations from a re-analysis of the deposited data

Results flagged for a closer look

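In 68 groups of 5 hearts examined, 8 held 1 heart whose gap to its nearest neighbor exceeded Dixon's 95% critical value, where chance gives about 3.4. Vehicle heart 5 accounted for 7 of them. In this heart *Ccl6* was at 57.2 FPKM (20.3 to 27.3 in the other vehicle hearts), *Cxcl16* at 8.67 FPKM, *Cxcr4* at 5.81 FPKM, *Ccr2* at 2.03 FPKM and *Ccl3* at 1.35 FPKM. Its marker sums for monocytes, 402.3 FPKM, and for neutrophils, 92.7 FPKM, stood apart in the same way. MEKi heart 2 was flagged for *Cxcl14*, at 6.51 FPKM against 15.4 to 17.9 FPKM in the other MEKi-treated hearts. The cause of these departures was not tested.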

How the results depend on the processing

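The number of genes past the threshold was 10, 18 with array weights, 5 with the 3 hearts of highest atrial marker level left out, and 0 without X, Y and mitochondrial genes, where 924 had an unadjusted p under 0.05. With the replicate number as a block it was 4. Leaving out 1 heart at a time gave 5 to 13 genes, the fewest without vehicle heart 2. The members past the threshold numbered 0 except with a pseudocount of 1, which called 1, *Ccl11* (log2 fold change −1.27). The related genes past it numbered 0 in every setting run. Same-numbered hearts did not deviate together (correlations of −0.154 to −0.0209). These correlations gave no sign that the numbers pair the hearts, but without a reference distribution they cannot exclude it. The 7 members at an unadjusted p under 0.05 stayed lower in every setting that tested them. *Ccl12* missed that level without vehicle heart 2 and without the 3 atrial-rich hearts, and *Ackr4* was not tested at a mean of at least 2 FPKM. Others joined them in single settings, all lower but *Ccl3*: *Ccl2* under the block, *Ackr2* without vehicle heart 1, *Cx3cr1* and *Ccr7* without vehicle heart 3, and *Ccl3* without vehicle heart 5. Without a filter, *Cxcr2* (lower) and *Xcr1* (higher) joined. With the 3 atrial-rich hearts left out, 16 members were lower and 11 higher. Small values changed sign. On the TPM scale *Cxcl12* (0.027), *Cx3cl1* (0.029), *Ccr1* (0.048) and *Ccr2* (0.0041) were above 0, as was *Ccr2* with array weights (0.0022). Without the 3 atrial-rich hearts the values were 0.000071 for *Cxcl12*, 0.14 for *Cxcr4*, 0.13 for *Cx3cl1*, 0.067 for *Ccr1* and 0.22 for *Ccr2*. Leaving out 1 heart at a time, the log2 fold change ran from −0.13 to 0.83 for *Ccl21a*, −0.016 to 0.21 for *Ackr3*, −0.14 to 0.0039 for *Cxcl12*, −0.22 to 0.024 for *Cxcl16*, −0.31 to 0.030 for *Cxcr4*, −0.19 to 0.060 for *Cx3cl1*, −0.13 to 0.19 for *Ccl24*, −0.10 to 0.22 for *Ccl27a*, −0.15 to 0.19 for *Ccr1*, −0.18 to 0.21 for *Ccr2* and −0.25 to 0.11 for *Cxcl1*. It kept its sign for *Ccl2* (−0.82 to −0.25), *Ccl8* (−0.66 to −0.17), *Ackr2* (−0.69 to −0.30), *Cx3cr1* (−0.62 to −0.24), *Ccr7* (−1.05 to −0.30) and *Cxcl9* (−0.38 to −0.06). The exact permutation p of *Cxcr2* was 0.0571 without the atrial-rich hearts and 0.0714 to 0.0794 without MEKi heart 1, 2 or 3. Its groups still did not overlap in these settings. Without the atrial-rich hearts fewer assignments remain, so the smallest p that the test can give is larger. Apart from this limit, the causes of these shifts were not tested. Depth limits the members under the filter, which had at most 179 fragments each over all hearts.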
